A study of Mus musculus with 12 samples.

Results

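Type I interferon-stimulated genes were examined in macrophages sorted from the ducts of the mouse mammary gland. The set is a list of 37 gene symbols given by name, and the rule that picks its rows uses no measured value. The list itself was chosen with earlier results of these data known. Shares of the set beside those of all genes are therefore descriptions. All 37 were matched to a row of the count table, out of 27179 gene rows, and all 37 passed the filter on low counts, which left 12672 genes for testing. The 4 groups were ductal macrophages of female C57BL/6 mice that were virgin, at day 16.5 of pregnancy, lactating, or 1 month past weaning. There were 3 libraries per stage, each made from 2000 sorted cells and labelled a biological replicate. The labels name no altered allele and no treating agent for any group, and all groups share the strain and the tissue. The sources used here give neither age nor the day of lactation, nor the sort gate, nor whether a library came from 1 animal or from several. The p-values therefore measure the spread between these samples.

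Type I interferons, the interferon-alpha and interferon-beta proteins, are secreted when a cell senses foreign nucleic acid or certain danger signals. They bind a receptor made of IFNAR1 and IFNAR2, and its kinases JAK1 and TYK2 act on a complex that holds STAT2 and IRF9 and enters the nucleus. There the complex binds a promoter element, and genes for antiviral proteins are transcribed. Macrophages can both make and answer type I interferon, and many of these genes are transcribed at a low level in tissue macrophages without infection. Some of them, Rsad2 and Isg15 among them, can also be induced by IRF3, the factor downstream of nucleic acid sensors, without secreted interferon.

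The upstream sequences of Oasl1 and Rsad2 are shown because these genes had the highest fold changes of the set and were high in the same libraries, and those of Oasl2 and Cmpk2 because they are their nearest neighbours within it on the chromosome. The sequences are from RefSeq, on build GRCm38.p6, where 27 of the 37 genes had an entry. They hold up to 250 bases before the annotated start, written 5′ to 3′ in the direction of transcription, and no part is marked. Where a sequence is shorter, the remaining bases of the window lie within the annotated gene. The Oasl1 stretch is chr5:114922990-114923142, plus strand. The Oasl2 stretch is chr5:114896684-114896925, plus strand. For Rsad2 it is chr12:26456453-26456702, minus strand. For Cmpk2 it is chr12:26468965-26469116, plus strand.
Oasl1: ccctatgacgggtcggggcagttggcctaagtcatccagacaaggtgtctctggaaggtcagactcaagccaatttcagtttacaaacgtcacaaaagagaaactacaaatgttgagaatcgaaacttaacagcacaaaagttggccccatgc
Oasl2: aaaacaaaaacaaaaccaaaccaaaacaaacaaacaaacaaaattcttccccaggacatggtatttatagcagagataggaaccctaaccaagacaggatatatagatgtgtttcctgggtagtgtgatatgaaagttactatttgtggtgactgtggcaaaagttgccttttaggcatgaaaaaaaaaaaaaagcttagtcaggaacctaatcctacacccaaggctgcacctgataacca
Rsad2: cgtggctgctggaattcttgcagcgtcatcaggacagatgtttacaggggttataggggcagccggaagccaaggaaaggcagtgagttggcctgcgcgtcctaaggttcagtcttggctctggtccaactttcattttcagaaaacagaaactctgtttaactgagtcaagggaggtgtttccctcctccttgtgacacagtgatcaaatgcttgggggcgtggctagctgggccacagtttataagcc
Cmpk2: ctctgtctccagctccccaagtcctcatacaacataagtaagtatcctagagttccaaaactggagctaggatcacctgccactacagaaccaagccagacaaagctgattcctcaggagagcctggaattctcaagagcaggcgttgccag

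The libraries held 6926273 to 21204704 counts. Levels are given as CPM, the count relative to a library size scaled by the TMM method, and RPKM, which also divides by gene length, is used where genes are compared with each other. The TMM factor was 0.791 and 0.792 in lactating replicates 1 and 2 and from 1.001 to 1.14 in all other libraries. Both replicates therefore stand higher in CPM than relative to their unscaled totals. Orderings of libraries below are in CPM unless stated otherwise. The 10 macrophage markers checked, among them Adgre1, Csf1r and C1qa, were detected in every library. They summed to 14795 to 15926 CPM in virgin mice, 14475 to 15219 in pregnancy, 9509 to 30297 in lactation and 16438 to 17773 after weaning. Among them Cd14, the co-receptor of TLR4, stood at 14274, 13045 and 3002 CPM in lactating, 4056, 4568 and 4269 in virgin, 2249, 1426 and 2397 in pregnant and 5748, 4834 and 5298 in post-weaning libraries. Mertk, a receptor for dying cells, was lower in all lactating libraries than in any other, at 7.8, 0.731 and 0.0878, 32, 93.7 and 30.7, 18.4, 34.9 and 64.7 and 19.8, 56.7 and 63.3 CPM in the same order. Lactating replicate 3 stood apart. Its 7 milk secretory markers summed to 61632 CPM, against 1824 and 1676 in the other lactating libraries, its macrophage markers to 9509, against 30297 and 28251, and its 5 endothelial markers to 197 CPM. Fewer genes were detected in it than in any other library, 10178. For the called genes, for Ifih1 and for the fold changes over the set, results on lactation are given with and without it. Most other tests on lactation are given with it only. In RNA from pooled cells, fewer cells that express a gene and less RNA per cell cannot be told apart.

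Most of the set was present at a low level at every stage. Per length, Bst2, which tethers budding virus to the cell membrane, was the most abundant at a mean of 257 RPKM over the 12 libraries. It was followed by Ifi27l2a, a small interferon-induced mitochondrial protein gene, at 207 RPKM, Ifitm3, which blocks virus entry at endosomes, at 153 RPKM, and Ifi204, a DNA-binding protein gene of the p200 family, at 87.4 RPKM. The least abundant was Oas2, an oligoadenylate synthetase gene, at 0.928 RPKM. The lactating stage had the highest mean of the 4 in 14 of the 37 genes and virgin in 11, while post-weaning had the lowest mean in 13 and pregnant in 11. Within a stage, libraries differed among themselves. The median coefficient of variation of the 37 genes was 0.371 in virgin mice, 0.297 in pregnancy, 0.544 in lactation and 0.395 after weaning, beside 0.449, 0.31, 0.663 and 0.346 for all genes tested. Virgin replicate 2 was the lowest virgin library in 21 of the 37 genes, and pregnant replicate 1 the lowest pregnant library in 24.

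Summed over the set, the virgin libraries held 1973, 1476 and 1810 CPM, the pregnant 1452, 2003 and 1718, the lactating 2149.7, 2912 and 2167 and the post-weaning 1388, 1483 and 1466. In CPM every lactating library was above the other 9, an order that depends on the TMM scaling. As a share of unscaled counts, the lactating libraries held 0.17, 0.23 and 0.236%. The virgin libraries held 0.197, 0.153 and 0.195% and the pregnant ones 0.153, 0.207 and 0.196%. Lactating replicate 1 thus lay among the virgin and pregnant libraries in unscaled counts. Without Oasl1 and Rsad2 the sums were 1895, 1429.7 and 1756, then 1416, 1917 and 1630.5, then 1764, 2162 and 1610.5, then 1317, 1414 and 1389 CPM, stage by stage as before, and lactating libraries then overlapped the virgin and pregnant ones. These 2 genes held 17.9, 25.8 and 25.7% of the summed CPM in lactating libraries, and 2.47 to 5.24% in the other 9. Sums are descriptions and were not tested.

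**Figure D1:**
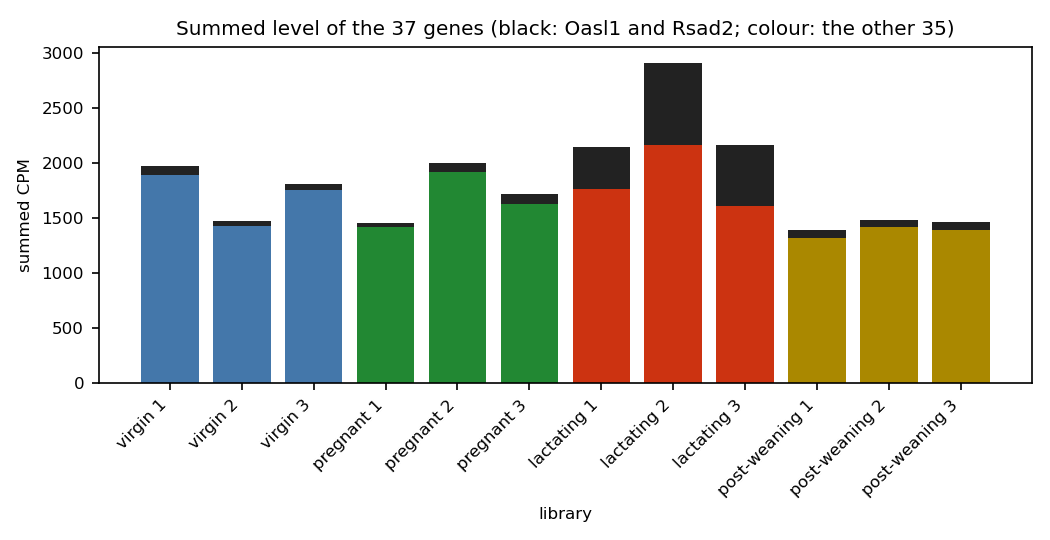
Summed CPM of the 37 genes in each of the 12 libraries, as stacked bars from 0, with Oasl1 and Rsad2 in black and the other 35 genes in the colour of the stage. The lactating bars reach 2149.7, 2912 and 2167 CPM, and their coloured parts overlap those of the virgin and pregnant libraries.

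Oasl1 and Rsad2 set lactation apart from every other stage. In lactating against virgin libraries, 3 of the 37 genes rose (Oasl1, Rsad2 and Ifi27l2a) and 0 fell, where 1.94% of all genes tested were called in either direction and 1.04% higher. In lactating against pregnant libraries 2 rose (Oasl1 and Rsad2), beside 3.85% of all genes in either direction and 2.65% higher. In post-weaning against lactating libraries the same 2 genes fell, beside 0.923% in either direction and 0.466% lower. The test of any difference between stages called Oasl1 (adjusted p = 0.00123) and Rsad2 (adjusted p = 0.00836), with 3.35% of all genes called. These 3 comparisons share the lactating libraries and are not independent of each other.

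Oasl1 encodes an oligoadenylate synthetase-like protein that has lost synthetase activity and is known in mice as an inhibitor of Irf7 translation. It lies on chromosome 5, from 114923143 to 114937911. Its level was 19.2, 13.2 and 22.1 CPM in the virgin libraries, 20, 21 and 36.4 in the pregnant, 150.4, 265 and 367 in the lactating and 27.1, 11.9 and 31.5 in the post-weaning libraries. The lowest lactating library was 4.14 times the highest of the other 9, and those 9 overlapped across their stages. Means were 18.2 ± 4.54 CPM in virgin mice, 25.8 ± 9.17 in pregnancy, 261 ± 109 in lactation and 23.5 ± 10.2 after weaning (SD, n = 3). Oasl1 rose 14.3-fold in lactating against virgin libraries (log2 fold change 3.84 ± 0.47, adjusted p = 0.00411) and 10.1-fold against pregnant ones (log2 fold change 3.34 ± 0.46, adjusted p = 0.00228), and fell after weaning (log2 fold change -3.47 ± 0.46, adjusted p = 0.00572). The 3 calls held when any of the 12 libraries was left out, with a highest adjusted p of 0.0359. Without lactating replicate 3 the log2 fold change was 3.46 against virgin and 2.95 against pregnant. A fit restricted to the 6 libraries compared did not call Oasl1 against virgin (adjusted p = 0.146) or after weaning (adjusted p = 0.108), and the restricted fit of lactating against virgin called 0 genes in the whole table.

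Rsad2 encodes viperin, a radical SAM enzyme of the endoplasmic reticulum and lipid droplets that turns CTP into a chain-terminating nucleotide. It lies on chromosome 12, from 26442743 to 26456452. Its level was 58.2, 32.7 and 31.4 CPM in the virgin libraries, 15.9, 64.4 and 51.6 in the pregnant, 235, 485 and 189 in the lactating and 43.3, 56.8 and 45.3 in the post-weaning libraries. The lactating libraries did not overlap any other, and the lowest of them was 2.94 times the highest of the other 9. Rsad2 rose 7.44-fold in lactating against virgin libraries (log2 fold change 2.90 ± 0.52, adjusted p = 0.0185) and 6.89-fold against pregnant ones (log2 fold change 2.78 ± 0.52, adjusted p = 0.0115), and fell after weaning (log2 fold change -2.64 ± 0.51, adjusted p = 0.0386). The call against virgin was lost without virgin replicate 2 (adjusted p = 0.0711) or virgin replicate 3 (adjusted p = 0.0698). The call against pregnant held without any of the 12 libraries. The fall after weaning lost its call in 7 of the 12 fits that left out a library, at adjusted p = 0.0553 without virgin 3, 0.15, 0.165 and 0.162 without post-weaning 1, 2 and 3, 0.0525 and 0.0619 without pregnant 2 and 3, and 0.0863 without lactating 2. Without lactating replicate 3 the 3 calls held, with log2 fold changes of 3.09, 2.98 and -2.83. The fit of the 6 libraries compared kept none of them (adjusted p = 0.149, 0.0876 and 0.12).

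Transcripts of other cell types also differed between these libraries, and their part in the results on lactation was not tested. The 7 milk secretory markers summed to 0 to 79.1 CPM in virgin mice, 1617 to 13497 in pregnancy, 1676 to 61632 in lactation and 432 to 1919 after weaning. In pregnant replicates 1, 2 and 3 they summed to 13497, 1617 and 2215 CPM, with Oasl1 at 20, 21 and 36.4. In lactating replicates 1, 2 and 3 they summed to 1824, 1676 and 61632 CPM, with Oasl1 at 150.4, 265 and 367. Lactating replicate 3 was the highest of the 12 libraries for both. Of 7 plasmacytoid dendritic cell markers, Klk1 and Pacsin1 were at 0 in all 12 libraries, and the summed level was 164 to 295 CPM in lactating and 188 to 294 in virgin libraries. Siglech, a surface lectin gene of these cells, had 116, 86.8 and 70.5 CPM in the virgin libraries, 237, 207 and 169.9 in the pregnant, 130.5, 230.2 and 78.4 in the lactating and 108, 58.8 and 142 in the post-weaning libraries, and Ly6d had 10.4, 23.7 and 144 CPM in the virgin libraries, 0.334, 0.459 and 0 in the pregnant, 3.64, 2.01 and 0 in the lactating and 56, 18.6 and 6.83 in the post-weaning libraries. Siglech was above every virgin library in all lactating libraries but the third and in all pregnant ones, while Ly6d was lower in both of these stages than in any virgin library. Ccr9 was at 0 in all 3 lactating libraries, at 6.34 to 13.6 CPM in pregnant and at most 0.459 in virgin ones. Cox6a2 was also at 0 in lactating libraries, and Tcf4 overlapped between lactating and virgin ones. Virgin replicate 3 was the highest of the 12 libraries for Ly6d and for the keratin gene Krt19. Ly6d held 144 of its 294 CPM summed, and whether Ly6d or the sum tracks these cells was not tested. The 5 fibroblast markers summed to 18.4 to 309.5 CPM in virgin mice, 2.33 to 6.58 in pregnancy, 0 to 4.16 in lactation and 31.5 to 135 after weaning. The 6 epithelial markers summed to 129.5 to 677, 224 to 292, 99.3 to 288 and 209.9 to 790.1 CPM in the same order, and the keratin gene Krt19 was at 0 in all 3 lactating libraries and was called lower there than in virgin libraries (adjusted p = 0.00411). The list did not move as 1. Krt8, Krt18 and Krt14 also had lower means in lactating than in virgin libraries. Epcam and Krt5 had higher ones, at 108 against 38.9 CPM and 10.6 against 2.79 CPM. In pregnant libraries the mean of Epcam was 189 CPM. The neutrophil genes S100a9, Retnlg and Ly6g were at 0 in all 12 libraries, and 6 monocyte markers summed to 7.2 to 112 CPM in lactating and 159 to 233 in virgin libraries, nearly all of it Ccr2. From virgin to post-weaning, 5 B cell markers summed to 21.55 to 36.2, 3.19 to 7.69, 0 to 4.75 and 5.95 to 31.5 CPM. For 7 T and NK cell markers the sums were 3.8 to 5.16, 2.11 to 6.65, 4.33 to 25.5 and 2.24 to 14.3 CPM. Of these, Ncr1 was detected in lactating replicate 3 alone (153 counts). For 6 conventional dendritic cell markers they were 77.6 to 206, 107 to 184, 59.6 to 128 and 50.5 to 100 CPM.

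**Figure D2:**
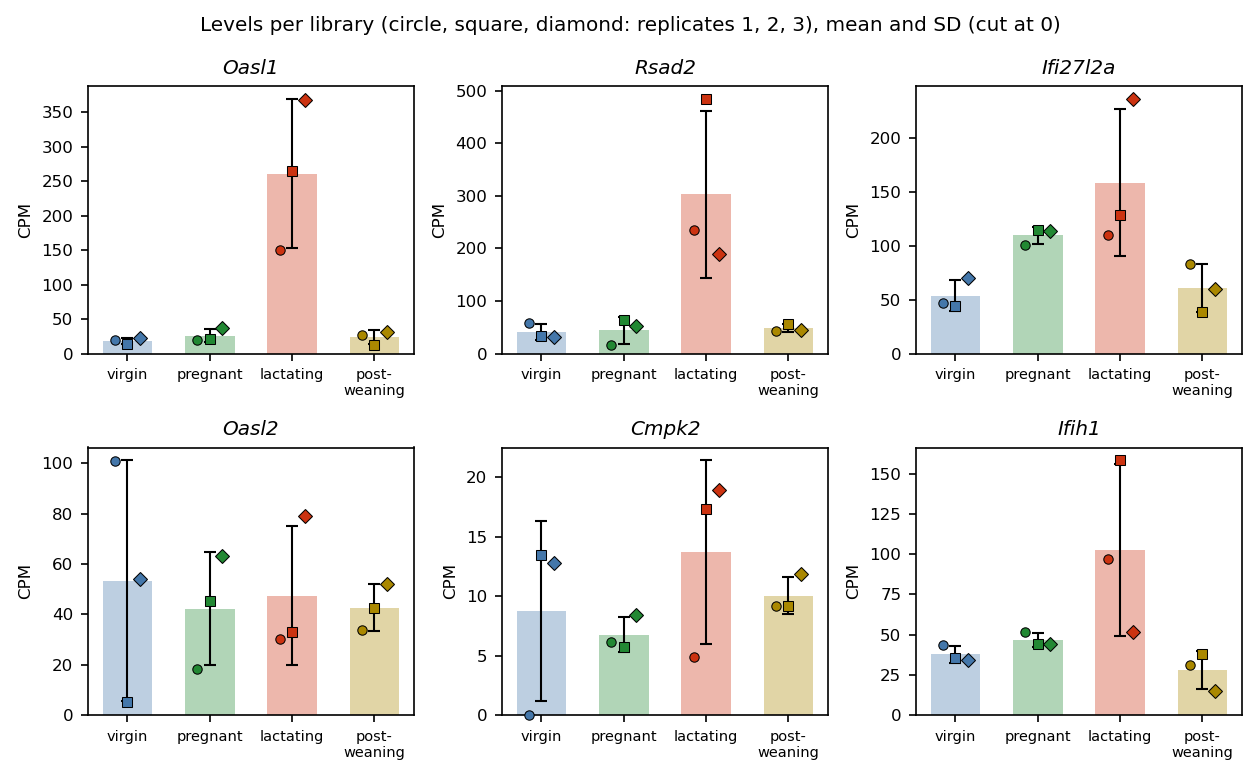
CPM per library for Oasl1, Rsad2 and Ifi27l2a, for Oasl2 and Cmpk2, the neighbours of the first and second on their chromosomes, and for Ifih1. Points are libraries (circle, square and diamond for replicates 1, 2 and 3), bars the mean of 3 from 0, and whiskers the SD, cut at 0. Lactating Oasl1 sits at 150.4, 265 and 367 CPM and Rsad2 at 235, 485 and 189, above all other libraries, while lactating Oasl2 and Cmpk2 lie among the other stages.

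The neighbours of both genes in the set were not called in any comparison. They are described because of their position and were chosen after their values were seen. Oasl2, the paralog that keeps synthetase activity, ends 10897 bases before Oasl1 begins. Its level was 101, 5.23 and 54.2 CPM in the virgin libraries, 18.4, 45.3 and 63.3 in the pregnant, 30.1, 33.1 and 79.2 in the lactating and 33.6, 42.6 and 51.9 in the post-weaning libraries, and its log2 fold change in lactating against virgin libraries was -0.17 ± 0.78 (adjusted p = 0.96). Cmpk2, a mitochondrial nucleotide kinase gene transcribed away from Rsad2, lies 12664 bases from it. Its level was 0, 13.5 and 12.8 CPM in the virgin libraries, 6.12, 5.74 and 8.45 in the pregnant, 4.85, 17.4 and 19 in the lactating and 9.16, 9.18 and 11.8 in the post-weaning libraries, with a log2 fold change of 0.65 ± 1.22 (adjusted p = 0.858). The lactating values of both neighbours overlapped those of the other stages, and a p that misses the threshold does not show that they were level. Per length, Oasl1 averaged 123 RPKM and Oasl2 15.1 RPKM in lactating libraries, and 8.56 and 17 RPKM in virgin libraries.

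Ifi27l2a, the third gene called, had 46.9, 43.7 and 70.2 CPM in the virgin libraries, 101, 115 and 114 in the pregnant, 110, 129 and 237 in the lactating and 83.4, 38.5 and 60.1 in the post-weaning libraries. Lactating libraries lay above every virgin and post-weaning library and overlapped the pregnant ones. It rose 2.96-fold in lactating against virgin libraries (log2 fold change 1.56 ± 0.35, adjusted p = 0.0488), and its difference between pregnant and virgin libraries, which did not overlap, missed the threshold (log2 fold change 1.03 ± 0.35, adjusted p = 0.247). This call was lost in 11 of the 12 fits that left out a library, all but the one without lactating replicate 1, at adjusted p of 0.17, 0.154 and 0.0698 without virgin 1, 2 and 3, 0.0857, 0.0833 and 0.0805 without pregnant 1, 2 and 3, 0.0598 and 0.089 without lactating 2 and 3, and 0.0578, 0.054 and 0.0849 without post-weaning 1, 2 and 3. It was lost as well with limma-voom (adjusted p = 0.0917) and with RLE size factors (adjusted p = 0.061). The fit with the replicate number as a block and the fit of the 6 libraries compared (adjusted p = 0.256) also lost it. Without lactating replicate 3, the highest of its libraries, the log2 fold change was 1.11. Ifi27l2a overlaps Ifi27 in the annotation, and the sources used here give no strand setting for the counting, so their reads may not be separated.

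Apart from Oasl1 and Rsad2, Ifih1 and Isg15 had all 3 lactating libraries above the other 9 in CPM. This makes 4 of 37 genes (10.8%), beside 421 of 12672 genes tested (3.32%). The position of Isg15 among them depends on the TMM scaling, as given below. Ifih1, singled out after its values were seen, encodes MDA5, the cytosolic sensor of long double-stranded RNA. Its level was 43.6, 35.2 and 34.1 CPM in the virgin libraries, 51.5, 44.3 and 43.9 in the pregnant, 97, 158 and 51.7 in the lactating and 31.1, 37.7 and 15 in the post-weaning libraries. Lactating replicate 3 was level with pregnant replicate 1, while the other lactating libraries stood clear of the rest. Its log2 fold changes were 1.44 ± 0.42 in lactating against virgin (adjusted p = 0.115), 1.14 ± 0.42 against pregnant (adjusted p = 0.171) and -1.87 ± 0.43 in post-weaning against lactating libraries (adjusted p = 0.0687). edgeR called none of these, and without lactating replicate 3 it called all 3. limma-voom called all 3 on the 12 libraries (adjusted p = 0.0463, 0.012 and 0.0061), and DESeq2 called the first and the last (adjusted p = 0.021 and 0.00134). The other RNA sensors of the set, Dhx58 (LGP2, a regulator of MDA5) at 16.9 to 49.3 CPM and Zbp1 (a sensor of Z-form nucleic acid) at 6.04 to 44.2 CPM, overlapped across stages.

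Isg15 encodes a ubiquitin-like protein that is attached to other proteins during the interferon response. Its level was 27.3, 19.6 and 42.2 CPM in the virgin libraries, 13.4, 19.7 and 22.5 in the pregnant, 44.4, 60.7 and 44.8 in the lactating and 36.9, 22.9 and 17.3 in the post-weaning libraries. In CPM the lactating libraries were above the rest by a narrow margin, since the lowest of them was 1.05 times virgin replicate 3, the highest of the others. This margin depends on the TMM scaling. Unscaled, Isg15 took 256 of 7304269 counts in lactating replicate 1 and a larger share, 578 of 12709036, in virgin replicate 3. The difference from pregnant libraries was 1.43 ± 0.41 on the log2 scale (adjusted p = 0.0837), and that from virgin libraries 0.75 ± 0.41 (adjusted p = 0.377), so edgeR called neither. DESeq2 (log2 fold change 1.44 ± 0.44, adjusted p = 0.0127) and limma-voom (log2 fold change 1.55 ± 0.36, adjusted p = 0.0179) called Isg15 higher against pregnant libraries. Usp18, the protease that removes ISG15 and restrains the receptor, had 16.5, 8 and 22.4 CPM in the virgin libraries, 8.56, 20.2 and 18.8 in the pregnant, 21.5, 4.57 and 0 in the lactating and 14.6, 21.1 and 19.6 in the post-weaning libraries. It showed no pattern by stage, with 0 in lactating replicate 3 and overlap everywhere else. Herc6, the mouse ligase for ISG15, spanned 0.0878 to 71.5 CPM, with its lowest value also in lactating replicate 3.

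The transcription factors that carry the response were not called in any comparison. Irf7, the amplifier of interferon production and itself an induced gene, had 38.7, 16.7 and 39.6 CPM in the virgin libraries, 37.9, 52.4 and 45.2 in the pregnant, 35.9, 110.2 and 36.7 in the lactating and 38.4, 17.1 and 25.4 in the post-weaning libraries. Lactating replicate 2 was the one high library, and the other lactating libraries fell among the remaining stages. Irf9, the DNA-binding subunit of the complex, had 144, 65.7 and 119 CPM in the virgin libraries, 71.8, 56.8 and 74 in the pregnant, 58.2, 51.5 and 115 in the lactating and 68, 69.4 and 66.6 in the post-weaning libraries, and virgin replicates 1 and 3 and lactating replicate 3 were its highest. Stat2, its partner, had 25.9, 15.4 and 21.7 CPM in the virgin libraries, 11.1, 8.26 and 25.3 in the pregnant, 10.2, 32.5 and 37.6 in the lactating and 5.68, 17.5 and 13.9 in the post-weaning libraries, with wide overlap between stages. The lowest adjusted p of these genes over the 6 pairwise comparisons was 0.309, post-weaning against lactating, for Irf7, 0.462, lactating against virgin, for Irf9, and 0.44, post-weaning against lactating, for Stat2. All 3 had a negative log2 fold change in post-weaning against lactating and against virgin libraries, with medians of -1.11 and -0.69.

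The IFIT proteins bind foreign RNA by its end structure. Ifit1, which recognises RNA without cap methylation, had 23.5, 23.1 and 20.5 CPM in the virgin libraries, 6.67, 29.1 and 8.74 in the pregnant, 27.7, 17.4 and 74.6 in the lactating and 16.2, 10.3 and 23.4 in the post-weaning libraries. Lactating replicate 3 was its highest library, and the rest overlapped. Ifit3, which stabilises IFIT1, had 20.8, 29.1 and 37.6 CPM in the virgin libraries, 5.45, 22.1 and 18.3 in the pregnant, 12, 26.3 and 14.2 in the lactating and 41.3, 20.3 and 16.9 in the post-weaning libraries, and pregnant replicate 1 was its lowest. Ifit2 spanned 0.439 to 75.2 CPM and Ifit3b, a close copy of Ifit3 that may share its reads, 0 to 14.7 CPM, and both had their lowest values in lactating replicate 3. None of the 4 was called. All 4 had negative log2 fold changes in pregnant against virgin libraries, with a median of -0.84, and in post-weaning against virgin libraries, with a median of -0.29.

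Of the 6 genes of the oligoadenylate synthetase family, whose active enzymes make the second messenger of RNase L, edgeR called only the synthetase-like Oasl1 in any of the comparisons. Oas2 had 6.77, 1.03 and 3.44 CPM in the virgin libraries, 2.67, 3.67 and 4.89 in the pregnant, 0.866, 5.85 and 0 in the lactating and 5.4, 6.12 and 2.33 in the post-weaning libraries, so it was low at every stage and its stages overlapped. Oas1a spanned 17.4 to 60.3 CPM, Oas1g 1.35 to 21.7 CPM and Oas3 0 to 57.7 CPM, the last with 0 counts in virgin replicate 1, lactating replicate 3 and post-weaning replicate 1. Oas1a and Oas1g are near-identical copies, so reads may be split between them. The median log2 fold change of the 6 genes of the family in lactating against virgin libraries was -0.08, with 3 positive and 3 negative.

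Mx1, a nuclear GTPase that blocks influenza virus and is defective in most laboratory strains, had 6.54, 9.11 and 7.46 CPM in the virgin libraries, 5.23, 11.6 and 11.2 in the pregnant, 8.49, 9.69 and 0 in the lactating and 0, 0 and 7.69 in the post-weaning libraries. It was at 0 in lactating replicate 3 and in post-weaning replicates 1 and 2. Mx2, its cytoplasmic paralog, spanned 0 to 29.7 CPM, with all 3 pregnant libraries below all 3 virgin ones (log2 fold change -2.24 ± 1.32, adjusted p = 0.58). Bst2 had 206, 136 and 171 CPM in the virgin libraries, 264, 201 and 238 in the pregnant, 233, 181 and 148 in the lactating and 209, 188 and 198 in the post-weaning libraries. Its values overlapped at every stage, and it had the smallest standard errors of the set, 0.13 ± 0.22 for the log2 fold change in lactating against virgin libraries. Its lowest adjusted p over the 6 pairwise comparisons was 0.447, pregnant against virgin. Ifitm3 spanned 53.5 to 175 CPM, with every lactating and every virgin library above every pregnant one (log2 fold change in lactating against pregnant libraries 1.08 ± 0.37, adjusted p = 0.144).

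edgeR called none of the enzymes of nucleotides and RNA, and their fold changes lay on both sides of 0. Eif2ak2, which encodes the kinase PKR that stops translation when it binds double-stranded RNA, spanned 9.69 to 38.8 CPM, and its 3 lactating libraries lay below all virgin and pregnant ones (log2 fold change against virgin -1.19 ± 0.44, adjusted p = 0.21). Against pregnant libraries the difference was -1.28 ± 0.44 by edgeR (adjusted p = 0.145), and DESeq2 called it lower (log2 fold change -1.26 ± 0.43, adjusted p = 0.035). Parp14, an ADP-ribosyltransferase gene, spanned 7.37 to 64.9 CPM, and its post-weaning libraries lay below all virgin and pregnant ones (-1.85 ± 0.64 against pregnant, adjusted p = 0.304). Isg20, an RNA exonuclease gene, spanned 1.49 to 11.4 CPM. The remaining genes, Ifi44 (0.439 to 47.2 CPM), Ifi35 (38.8 to 91 CPM), Rtp4, a receptor transporter gene (34.6 to 114 CPM), Xaf1 (10.7 to 41.7 CPM), the tripartite-motif gene Trim30a (43.2 to 334 CPM), Ifi204 (114 to 326 CPM), the interferon-inducible GTPase gene Ifi47 (7.28 to 69.7 CPM) and Sp100, a nuclear body gene (44.4 to 110.5 CPM), were not called by edgeR either. Sp100 was lower in all pregnant libraries than in any virgin or post-weaning one.

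**Figure D3:**
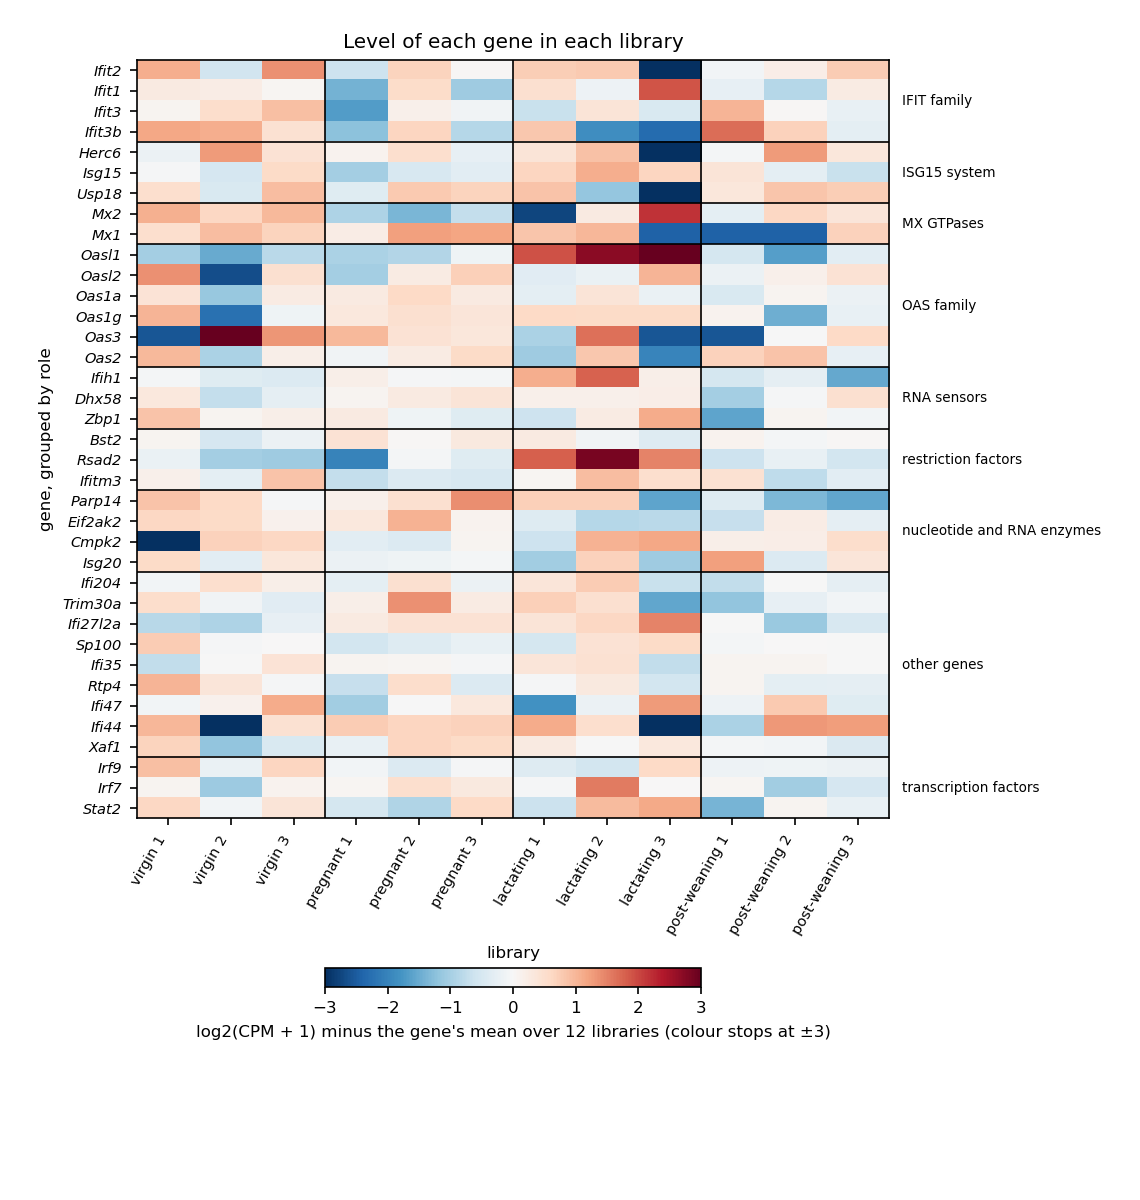
Level of each of the 37 genes (rows, grouped by role) in each of the 12 libraries (columns), as log2(CPM + 1) minus the gene's mean over the libraries, with the colour stopping at 3 on either side. The lactating columns are red for Oasl1 and Rsad2, while the column of lactating replicate 3 is dark blue for Ifit2, Herc6, Usp18 and Ifi44.

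Lactating replicate 3 had 8 of the 37 genes under 1 CPM (Herc6, Ifi44, Ifit2, Ifit3b, Mx1, Oas2, Oas3 and Usp18), 5 of them at 0 counts, and the other libraries had at most 2. The limit of 3 counts that a value of 0 allows covers the sampling of reads alone. Replicates differed by more than that, as with Cmpk2 at 0, 170 and 175 counts in the virgin libraries. A 0 in 1 library therefore does not bound the level in the cells. The same library had its highest values of the lactating stage in 13 of the 37 genes, Oasl1, Ifit1 and Ifi27l2a among them. Without it, the median log2 fold change of the set in post-weaning against lactating libraries was -0.24, with 24 of 37 negative, and with it -0.39, with 27 negative.

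Across the set, the direction of the fold changes was mixed. In lactating against virgin libraries, 21 of the 37 log2 fold changes were positive and the median was 0.05, beside -0.06 for all genes tested. With RLE size factors 18 were positive. Without virgin replicate 2, 14 were positive and 23 negative, with a median of -0.09. Without lactating replicate 3, 19 were positive and 18 negative, with a median of 0.04. In lactating against pregnant libraries 22 were positive, with a median of 0.15 beside -0.14, and without lactating replicate 3, 23 were positive, with a median of 0.20. In post-weaning against lactating libraries 27 were negative, with a median of -0.39 beside 0.08 for all genes. At an unadjusted p under 0.05 there were 5, 6 and 6 genes of the set in these comparisons, 13.5, 16.2 and 16.2% of it, near the 16.8, 18.6 and 15.1% of all genes tested. Without lactating replicate 3 there were 7, 6 and 9 genes of the set, in a fit for which the share of all genes is not given here.

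The comparisons that leave lactation out showed no called gene of the set. In pregnant against virgin libraries edgeR called 0 of 37, beside 1.32% of all genes, and 2 were under an unadjusted p of 0.05 (Ifi27l2a, higher, and Ifitm3, lower), beside 12.2% of all genes. The median log2 fold change was -0.17, beside 0.03 for all genes. Pregnant and virgin libraries did not overlap in 2 genes that were higher and 3 that were lower. This is 13.5% of the set, beside 24.2% of all genes. In post-weaning against virgin libraries edgeR called 0 of 37, beside 0% of all genes, and 1 was under an unadjusted p of 0.05 (Parp14, lower), beside 6.04%. There 26 of the 37 log2 fold changes were negative, with a median of -0.31 beside 0.02 for all genes. In post-weaning against pregnant libraries it called 0 of 37, beside 0.718% of all genes, with 2 under an unadjusted p of 0.05 (Ifi27l2a and Parp14, both lower), beside 10.2%. DESeq2 also called 0 in all 3 comparisons, and limma-voom called 1, Ifi27l2a in post-weaning against pregnant libraries. The median standard error of the set was 0.567 on the log2 scale in pregnant against virgin libraries, beside 0.808 for all genes.

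**Figure D4:**
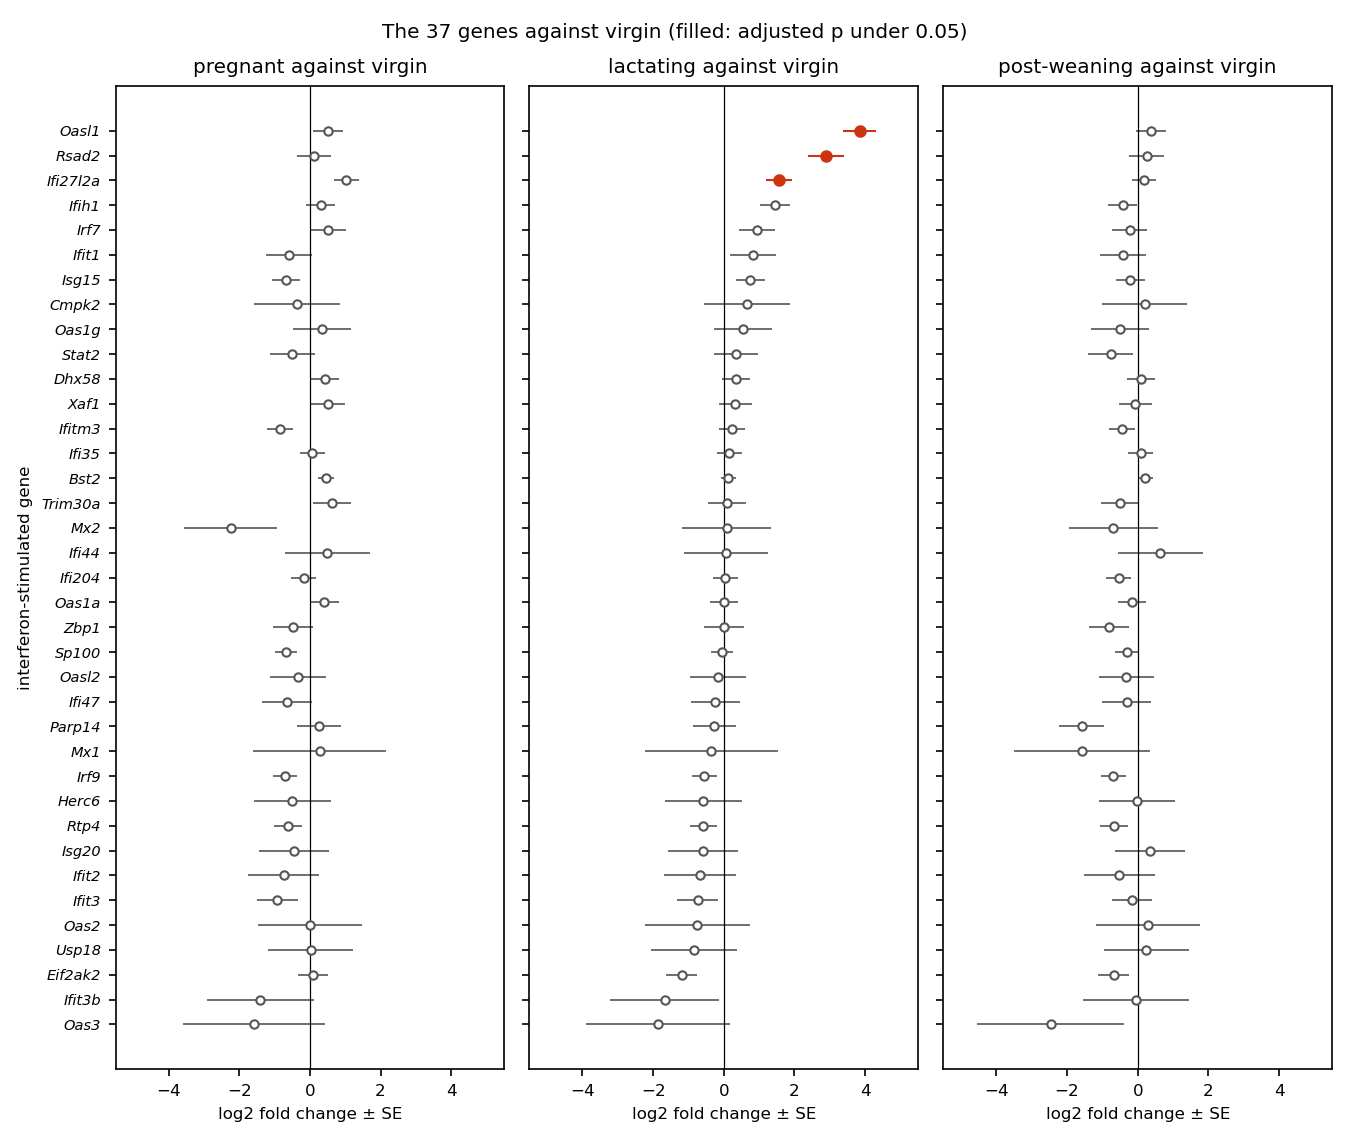
Log2 fold change ± standard error of the 37 genes in pregnant, lactating and post-weaning against virgin libraries, which all share the virgin libraries, ordered by the lactating value. Filled points passed an adjusted p of 0.05, which were Oasl1 at 3.84, Rsad2 at 2.90 and Ifi27l2a at 1.56 in the lactating panel, and the other points lie on both sides of 0.

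The genes above the set in the pathway were measured in the same libraries. Of 18 type I interferon genes listed, 13 were at 0 in all 12 libraries and 1, Ifnb1 (interferon-beta), passed the filter. Its level was 1.49, 4.36 and 5.12 CPM in the virgin libraries, 0, 3.1 and 1.2 in the pregnant, 13.9, 2.74 and 23.8 in the lactating and 4.03, 0 and 3.72 in the post-weaning libraries. It was highest in lactating replicates 3 and 1, while lactating replicate 2, which had the highest Rsad2, fell among the other stages, and it was not called (lactating against pregnant 3.23 ± 1.76, adjusted p = 0.351). The receptor genes Ifnar1 and Ifnar2 were not called either. Ifnar1 had 213, 189 and 119 CPM in the virgin libraries, 189, 197 and 174 in the pregnant, 206, 200.5 and 175 in the lactating and 98.5, 153 and 213 in the post-weaning libraries, and Ifnar2 372, 264 and 241 CPM in the virgin libraries, 286, 336 and 394 in the pregnant, 225, 299 and 138 in the lactating and 259, 272 and 281 in the post-weaning libraries. Both overlapped between all stages.

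The kinases Jak1 and Tyk2 did not pass the test in any comparison. Jak1 had 259, 171 and 184 CPM in the virgin libraries, 138, 207 and 180.2 in the pregnant, 213, 187 and 164 in the lactating and 137, 213 and 182 in the post-weaning libraries, and Tyk2 22, 40.2 and 42.1 CPM in the virgin libraries, 25.6, 33.6 and 40.7 in the pregnant, 39.5, 31.4 and 8.6 in the lactating and 62.6, 14.6 and 35.1 in the post-weaning libraries. Neither set a stage apart. Of the 11 receptor and signalling genes, 1 was called, Socs3, an inhibitor of JAK kinases that STAT3 induces, in lactating against pregnant libraries, where 3.85% of all genes tested were called. Its level was 196, 282 and 287 CPM in the virgin libraries, 146, 79.5 and 97.6 in the pregnant, 418, 454 and 268 in the lactating and 273, 283 and 248 in the post-weaning libraries, and it rose in lactating against pregnant libraries (log2 fold change 1.82 ± 0.28, adjusted p = 0.00445).

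Of 20 genes of nucleic acid sensing and interferon induction, 4 rose in lactating against pregnant libraries (Irf1, Irf5, Ticam1 and Tlr7) and 0 fell, beside 2.65% of all genes called higher. In lactating against virgin libraries 0 of the 20 were called, beside 1.94% of all genes, with 2 of the 20 under an unadjusted p of 0.05. Ticam1, the adaptor TRIF of TLR3 and TLR4, had 32.4, 33.3 and 56.4 CPM in the virgin libraries, 19.5, 4.7 and 12.1 in the pregnant, 61.3, 123 and 88.8 in the lactating and 39.5, 40.3 and 40.1 in the post-weaning libraries. The pregnant libraries were its lowest and the lactating ones its highest, without overlap (log2 fold change 2.91 ± 0.49, adjusted p = 0.00696). Irf1, a transcription factor of the interferon response, had 163, 198 and 296 CPM in the virgin libraries, 122, 92.9 and 85 in the pregnant, 269.8, 266 and 300.3 in the lactating and 220.3, 207 and 239.9 in the post-weaning libraries, and was lower in every pregnant library than in any other (log2 fold change 1.48 ± 0.24, adjusted p = 0.0055). It fell in pregnant against virgin libraries (log2 fold change -1.13 ± 0.24, adjusted p = 0.043), a call that was lost in 10 of the 12 fits that left out a library, all but those without virgin 1 and without lactating 3, at adjusted p from 0.0644 without lactating 2 to 0.203 without pregnant 2. Irf5, which acts downstream of TLR7 and TLR9, had 188, 268 and 227 CPM in the virgin libraries, 169.6, 168 and 145 in the pregnant, 329.7, 337 and 449.6 in the lactating and 253, 299.5 and 309 in the post-weaning libraries (log2 fold change 1.21 ± 0.20, adjusted p = 0.0061), with every lactating library above the rest. Tlr7, the endosomal sensor of single-stranded RNA, had 335, 523 and 240.3 CPM in the virgin libraries, 96.5, 109 and 158 in the pregnant, 377, 586 and 286 in the lactating and 297, 234 and 178 in the post-weaning libraries (log2 fold change 1.78 ± 0.36, adjusted p = 0.0168), and its call was lost without pregnant 1 (adjusted p = 0.0894), pregnant 2 (0.0927) or lactating 2 (0.0631). The calls of Socs3, Ticam1, Irf1 and Irf5 against pregnancy held without any of the 12 libraries, and in the fit of the 6 libraries compared Socs3, Ticam1 and Irf5 missed the threshold (adjusted p = 0.0554, 0.0698 and 0.0554).

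**Figure D5:**
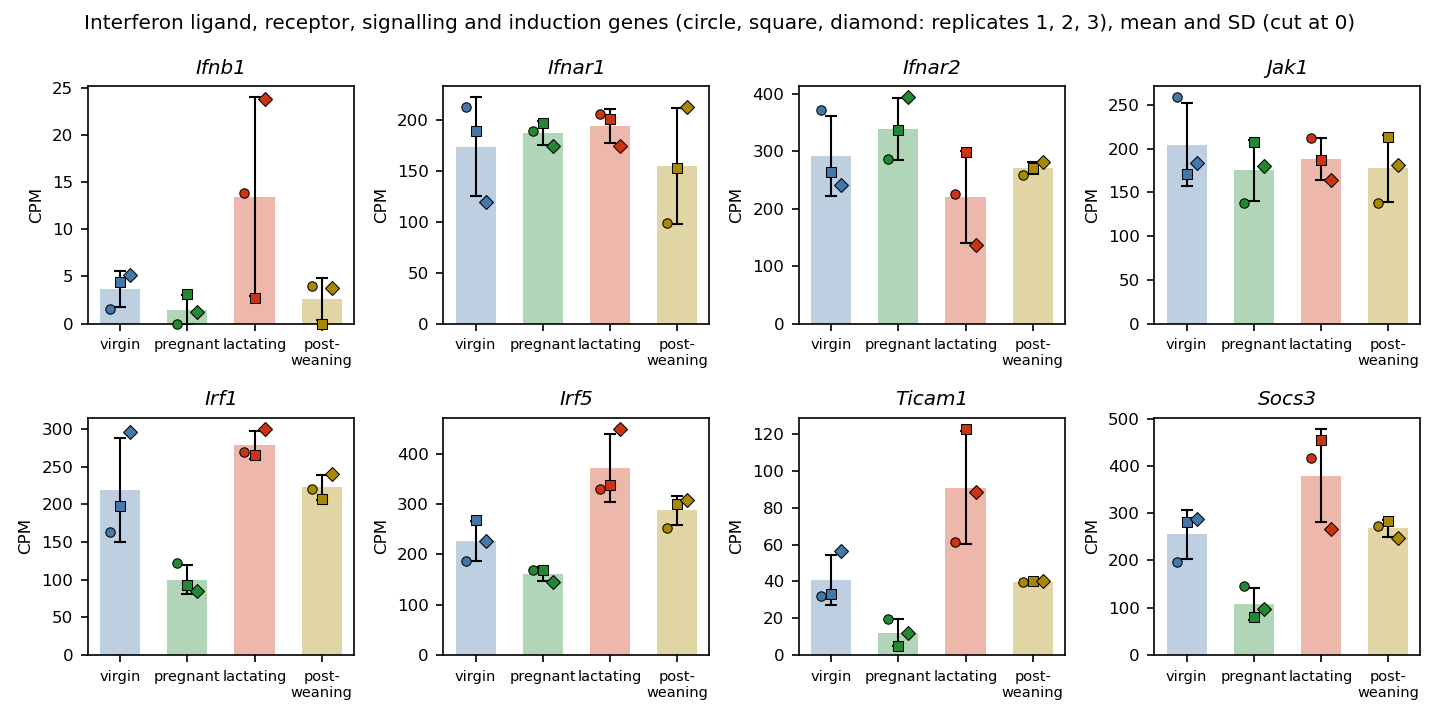
CPM per library of Ifnb1, Ifnar1, Ifnar2, Jak1, Irf1, Irf5, Ticam1 and Socs3, with bars for the mean of 3 libraries from 0 and whiskers for the SD, cut at 0. Points are libraries (circle, square and diamond for replicates 1, 2 and 3). Pregnant libraries are the lowest for Irf1, Irf5, Ticam1 and Socs3, while Ifnb1 varies from 2.74 to 23.8 CPM among lactating libraries.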

How the data were processed

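Per the labels' protocols, cDNA from sorted cells was made with a SMART-Seq v4 low-input kit, and all libraries were sequenced in 1 run. The values deposited by the authors are whole-number read counts per gene, not normalized. They were made with featureCounts on mm10, per the submitters' processing notes. The sources used here name no aligner or strand setting. Without molecular identifiers, PCR copies count as reads. Symbols and positions come from RefSeq on GRCm38.p6, the assembly behind mm10, and 25275 of 27179 rows matched (93%). Rows without a symbol took no more than 0.825% of any library.

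The whole table was fitted with edgeR 4.0.16 (R 4.3.3). After filterByExpr by stage and TMM scaling, the robust quasi-likelihood fit took all 12 libraries together, each stage with its own mean (common biological coefficient of variation 0.856). Adjusted p-values are Benjamini-Hochberg over 12672 genes, and a gene was called at an adjusted p under 0.05. CPM used TMM-scaled library sizes, and RPKM also the gene lengths in the deposited count tables. The pipeline was tested on simulated data. Alternatives were DESeq2 1.42.0, limma-voom (limma 3.58.1) with quality weights, RLE size factors, no low-count filter, at least 5 CPM in 3 libraries, the replicate number as a block, the 6 libraries compared alone, and leaving out each library.

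The members and gene lists were chosen with earlier results of these data known. Values per library are given for called members and for 10 followed whether or not they changed (Isg15, Ifit1, Ifit3, Irf7, Irf9, Stat2, Mx1, Oas2, Usp18 and Bst2). Other members are given by range, and pathway genes where called, plus Ifnb1, Ifnar1, Ifnar2, Jak1 and Tyk2. A further gene that the rule takes is not reported here. Members outside this rule named with values per library or a test were singled out after their values were seen. Replicates of a stage differed by more than sampling noise. In the annotation 13 of the 37 members are overlapped by another gene.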

Additional observations from a re-analysis of the deposited data

How the results depend on the processing

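No fold change of a called gene reversed its direction. Of 133 refits of the 7 calls of set members, 103 kept the call and 30 lost it, and of 304 refits of the 16 calls of other pathway genes, 243 kept it and 61 lost it. In lactating against virgin libraries, DESeq2 called 4 members and limma-voom 3, with Ifih1 among them in both, the 6 libraries compared 0, and the fits without a library 1 to 3. In lactating against pregnant libraries, DESeq2 and limma-voom each called 4, the 6 libraries compared 1, and the fits without a library 2 to 3. In post-weaning against pregnant libraries limma-voom called 1. In post-weaning against lactating libraries DESeq2 called 4, the 6 libraries compared 0, and the fits without a library 1 to 3. For any difference between stages DESeq2 and limma-voom each called 4, and the fits without a library 2 to 3. The cause of these differences was not tested, except that the fit of 6 libraries has fewer samples.

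Over all genes there was no sign that the replicate numbers pair the samples. Deviations of same-numbered libraries correlated at -0.0683 to 0.0726 over 18 pairs, and 5 of the 12 libraries correlated best with their own number. A pairing that acts on only some genes was not tested. With the replicate block, 1 member was called in post-weaning against lactating libraries, 2 in lactating against virgin, 2 in lactating against pregnant and 2 for any difference.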

Other observations

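Of 56 tested interferon-stimulated genes outside the 37, 2 rose (Slfn2 and Ifitm2) and 1 fell (Lgals3bp) in lactating against pregnant libraries, beside 3.85% of all genes called in either direction. In pregnant against virgin libraries 1 rose (Lgals3bp) and 1 fell (Slfn2), beside 1.32% of all genes. Slfn2, a schlafen gene of quiescent immune cells, had 726, 752 and 788 CPM in the virgin libraries, 248, 252 and 347 in the pregnant, 1120.2, 1194 and 876 in the lactating and 609, 649.9 and 717 in the post-weaning libraries. Every pregnant library was below all others, and every lactating library above them. It fell in pregnancy (log2 fold change -1.42 ± 0.20, adjusted p = 0.00702) and rose in lactation (log2 fold change 1.91 ± 0.20, adjusted p = 0.000438), and both calls held without any of the 12 libraries. Its rise in post-weaning against pregnant libraries (log2 fold change 1.22 ± 0.20, adjusted p = 0.0184) was lost without post-weaning 1, 2 or 3 (adjusted p = 0.0761, 0.084 and 0.105) and without pregnant 1, 2 or 3 (0.0881, 0.132 and 0.0521). Lgals3bp, a secreted galectin-binding glycoprotein gene, had 117, 79.9 and 109 CPM in the virgin libraries, 518, 537 and 279.8 in the pregnant, 132, 132 and 51.1 in the lactating and 109.7, 197 and 184 in the post-weaning libraries, with the pregnant libraries highest. It rose in pregnancy (log2 fold change 2.13 ± 0.40, adjusted p = 0.025) and fell in lactation (log2 fold change -2.08 ± 0.40, adjusted p = 0.0132). The first call was lost without virgin 1, 2 or 3 (adjusted p = 0.0622, 0.131 and 0.093) or pregnant 1 or 2 (0.0968 and 0.114), and the second without pregnant 1 or 2 (0.0532 and 0.062). Ifitm2, a relative of Ifitm3, had 16.6, 11.4 and 40.9 CPM in the virgin libraries, 14, 11.8 and 19.9 in the pregnant, 81.1, 88.8 and 71.8 in the lactating and 55.1, 22.8 and 23.3 in the post-weaning libraries (log2 fold change 2.40 ± 0.52, adjusted p = 0.026), with the lactating libraries above all others. Its call was lost without pregnant 1, 2 or 3 (adjusted p = 0.115, 0.136 and 0.0658) or lactating 1 or 2 (0.0517 and 0.0642).

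Of 19 tested genes of the interferon-gamma list, 1 rose (Jak2) and 2 fell (Gbp7 and Ifngr1) in lactating against pregnant libraries, beside the same 3.85% of all genes in either direction. Gbp7, a guanylate-binding protein gene, had 62.7, 27.2 and 48.1 CPM in the virgin libraries, 76.6, 87 and 82 in the pregnant, 17.3, 20.1 and 18.4 in the lactating and 45.2, 56.6 and 59.7 in the post-weaning libraries. The lactating libraries were below all others, and Gbp7 fell against pregnancy (log2 fold change -2.14 ± 0.32, adjusted p = 0.00358), a call that held without any of the 12 libraries. Its rise after weaning (log2 fold change 1.53 ± 0.31, adjusted p = 0.0441) was lost in 9 of 12 such fits, all but those without virgin 1, virgin 2 and lactating 3, at adjusted p of 0.0712 without virgin 3, 0.111, 0.181 and 0.162 without post-weaning 1, 2 and 3, 0.0829, 0.0902 and 0.0803 without pregnant 1, 2 and 3, and 0.0774 and 0.0778 without lactating 1 and 2. Jak2, a kinase of the interferon-gamma receptor, had 48, 69.6 and 35.3 CPM in the virgin libraries, 34, 41.4 and 20.8 in the pregnant, 87.2, 132 and 139 in the lactating and 53.2, 37 and 58.2 in the post-weaning libraries (log2 fold change 1.90 ± 0.36, adjusted p = 0.0126), and its call was lost without pregnant 1 or 3 (adjusted p = 0.0551 and 0.0532). Ifngr1, the ligand-binding receptor chain, had 860.5, 458 and 600.4 CPM in the virgin libraries, 812, 1109 and 661 in the pregnant, 374, 415 and 266 in the lactating and 649, 578 and 760.4 in the post-weaning libraries (log2 fold change -1.29 ± 0.28, adjusted p = 0.0265), and its call was lost without pregnant 1 or 2 (adjusted p = 0.0713 and 0.13).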
